A study of Mus musculus with 4 samples.

Results

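The cytosolic ribosomal protein genes were examined in mouse epidermis as a set of mostly highly transcribed promoters. There p63, a p53-family transcription factor needed for skin to form layers, had been mapped by chromatin immunoprecipitation and sequencing (ChIP-seq). Members were the protein-coding genes whose symbol is Rpl or Rps and a number, together with Rplp0 to Rplp2, and without the Rps6k kinase genes. An optional suffix of a, x, l, al, or l and a digit was taken. The rule found 83 genes among 21887 protein-coding genes of the RefSeq table for GRCm38.p6, the assembly that mm10 names. By symbol, 53 belong to the large subunit and 30 to the small subunit, and 8 are paralogs that carry an l suffix, such as Rps27l and Rpl36al. Epidermis came from dorsal skin at postnatal day 0, of a wild type sample (WT) and of a sample labelled p63 alphaKO (alphaKO). Each genotype had 1 ChIP library made with the antibody EPR570 and an input library that was not analysed here. The labels give no further description of the alphaKO allele, and no strain, sex or number of animals. With 1 library per genotype no difference between genotypes was tested, and the exact (Clopper-Pearson) 95% intervals below cover counting error only.

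The data are the authors' lists of p63 peaks, 10616 in WT and 14593 in alphaKO. A peak's fold is the authors' ratio of the pileup at its summit to the local background, and is read within its own list. Of peaks, 23.0% in WT and 4.39% in alphaKO had a fold below 5, and library depths were not analysed here. All 6 basal keratinocyte genes checked (Krt5, Krt14, Trp63, Itgb4, Col17a1 and Itga6) had a peak in the gene or within 10 kb in both lists. Of 13 genes of melanocytes, immune cells, fibroblasts, endothelium and Merkel cells 1 had such a peak in WT (Pecam1) and 2 in alphaKO (Pecam1 and Dct). The same rule marked 26.4% of all protein-coding genes in WT and 30.6% in alphaKO. Peaks at these genes are binding and not expression, and do not identify the cells.

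Most ribosomal protein genes supply the structural proteins of the ribosome in near-equal amounts, and are active in practically every cell. This need not hold for the 8 paralogs with an l suffix. Expression itself was not measured here. Their promoters are open and rich in factor binding, and many of their transcripts begin with a run of pyrimidines through which mTOR controls their translation. They touch the p53 family from another side as well: free ribosomal proteins such as Rpl11 bind Mdm2, the inhibitor of p53, and mutations of Rps19 or Rps20 darken mouse skin through p53. p63 recognises the same DNA element as p53, a pair of decamers.

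The sequences under the summits at 5 of these genes are shown to set 3 strong sites of both lists beside 2 weak sites of the WT list alone. Start positions, strands and bases are from the RefSeq promoter table (GRCm38.p6), which gives at least 1 start for 63 of the 83 genes. Capitals mark the stretch of 20 bases in the printed piece with the fewest mismatches to the p53-family consensus of paired decamers without a spacer, which reads the same on both strands. Each piece is written 5′ to 3′ on the strand of the gene, and whether its bases are exonic in transcripts from other starts was not analysed here. The first, of Rps27l, lies at chr9:66946253-66946352 (plus strand), the second, of Rps19, at chr7:24884763-24884862 (plus), the third, of Rpl36al, at chr12:69184191-69184220 (minus), the fourth, of Rps2, at chr17:24719883-24719982 (plus), and the last, of Rpl22, at chr4:152325626-152325725 (plus).
Rps27l: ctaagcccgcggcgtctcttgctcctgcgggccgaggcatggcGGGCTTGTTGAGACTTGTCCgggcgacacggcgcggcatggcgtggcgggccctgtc
Rps19: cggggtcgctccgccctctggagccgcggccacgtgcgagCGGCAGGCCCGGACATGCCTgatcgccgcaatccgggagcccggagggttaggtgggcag
Rpl36al: gcgaccgctcTGACAAGCCGCGACTGGCCT
Rps2: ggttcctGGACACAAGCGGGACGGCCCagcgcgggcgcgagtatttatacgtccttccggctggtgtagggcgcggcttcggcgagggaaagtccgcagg
Rpl22: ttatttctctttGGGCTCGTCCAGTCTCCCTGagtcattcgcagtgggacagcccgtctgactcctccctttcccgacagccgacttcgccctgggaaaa

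The capitals of Rps27l differ from the consensus at 1 position and those of Rps19 at 2. Those of Rpl36al differ at 4, of Rpl22 at 5 and of Rps2 at 7. The pieces are unlike, 30 bases at Rpl36al and 100 at Rps2, so these counts do not rank the sites. A closer match of Rps2 lay outside its printed piece. Over the whole start window, defined below, the best match had 3 mismatches at Rps2 and 4 at Rpl36al. Of all start windows of protein-coding genes, 28.3% held a match with at most 4 mismatches. A p63 summit lay beside or inside the capitals at the first 3 genes printed, in both lists. Rps27l, a paralog of Rps27 known as a p53-inducible gene, had its WT summit at 66946291 and its alphaKO summit at 66946293, 5 and 3 bases before the first base of the match. At Rps19, a small-subunit protein mutated in Diamond-Blackfan anaemia, the summits at 24884807 (WT) and 24884812 (alphaKO) fell inside the match. At Rpl36al both summits also fell inside the capitals, but this place is shared: the WT summit lay 134 bases upstream of the Rpl36al start and 43 bases inside the neighbouring gene Mgat2, which encodes a Golgi glycosyltransferase.

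A close match to the consensus was uncommon among start windows, each running from 250 bases before to 50 bases after an annotated start. Of 21263 such windows of protein-coding genes, 14 (0.0658%) held a match with at most 1 mismatch and 152 (0.715%) one with at most 2. Among the 75 windows of the 63 members with a start, the Rps27l window was the sole one with at most 1 mismatch and Rps19 added the sole one with exactly 2. Rps2 was the sole member window with 3 mismatches, at a match that began 239 bases before the start, 109 bases away from its WT summit. The other 72 member windows held best matches with 4 to 7 mismatches, and a summit of either list lay in 3 of them. A match is a description of the letters, and not a measured binding site.

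Across all genes, the share of start windows with a summit was highest where the best match was close. Of the 13 windows whose best match had 1 mismatch, 5 (38.5%) held a WT summit and 4 (30.8%) an alphaKO summit. With 2 mismatches the shares were 15.9% and 16.7% of 138 windows, with 3 they were 5.28% and 5.74% of 1080, and with 5 they were 3.35% and 1.33% of 9789. The WT share did not keep falling, and was 6.13% of 359 windows with 7 mismatches, where the alphaKO share was 1.95%. The single window with a perfect match held no summit. Windows with summits of both lists had at most 2 mismatches in 22 of 254 cases (8.66%), while those with a WT summit alone did so in 5 of 570 (0.877%) and those with an alphaKO summit alone in 5 of 118 (4.24%), beside 120 of 20321 (0.591%) for windows with no summit. Among members the counts were 2 of 3 windows with summits of both lists (Rps27l and Rps19) and 0 of 3 with a WT summit alone (Rpl22, Rps12 and Rps2). With 3 windows in each class, the members give no rate.

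**Figure D1:**
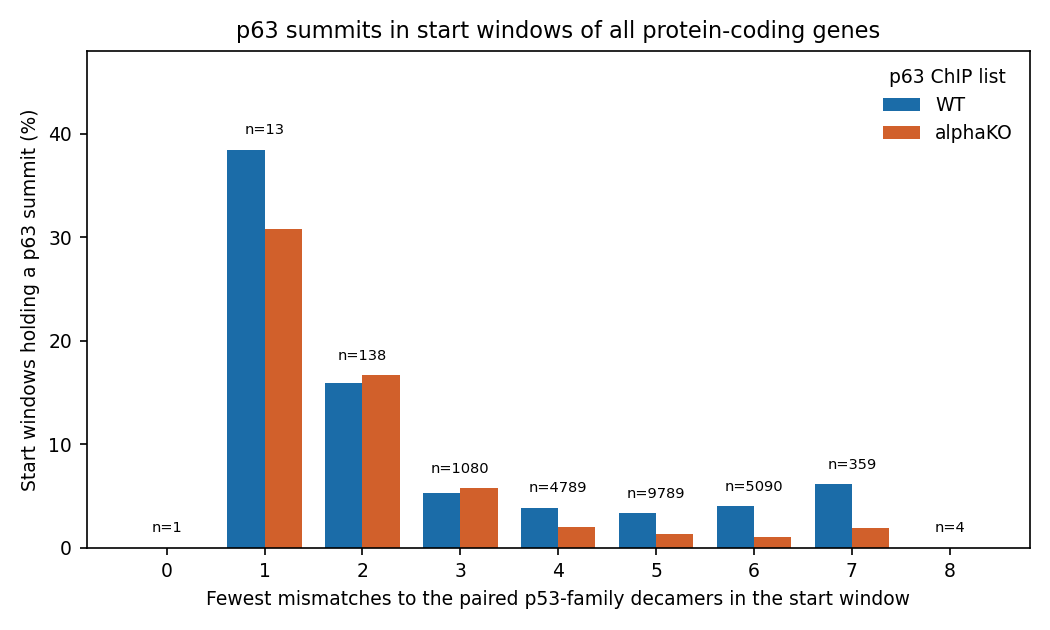
Bars give the percentage of start windows of all protein-coding genes that hold a p63 summit, in WT (blue) and alphaKO (orange), by the fewest mismatches to the paired p53-family decamers, with the number of windows above each pair. The shares were 38.5% and 30.8% at 1 mismatch and 3.35% and 1.33% at 5, and Rps27l belongs to the class with 1 mismatch and Rps19 to the class with 2.

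Within 1 kb of either end of the gene, p63 summits lay at 8 of the 83 members in WT (9.64%, interval 4.25 to 18.1) and at 4 in alphaKO (4.82%, 1.33 to 11.9). The same rule called 9.30% of all protein-coding genes in WT and 6.03% in alphaKO, so both shares were near the background. For 8797 genes no longer than the longest member (Rps15a, 11774 bp) it called 6.37% and 4.77%. Both lists marked 3 members (3.61%, beside 4.11% of all genes and 2.99% of the shorter ones). WT alone marked 5 (6.02%, beside 5.19% and 3.38%) and alphaKO alone marked 1 (1.20%, beside 1.91% and 1.78%). By this count the share of ribosomal protein genes with p63 at an end was near that of genes at large in both lists. Beside the shorter genes it was higher in WT (9.64% against 6.37%) and alike in alphaKO (4.82% against 4.77%). Both background shares of each list lay inside its interval.

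With the same limit on q or fold for both lists, the WT count no longer led. Among peaks with a −log10 q of at least 10, each list marked 4 members (Rpl36al, Rps19 and Rpl7 in both, Rps12 in WT and Rpl11 in alphaKO), beside 6.72% of all genes in WT and 5.57% in alphaKO. Among peaks with a fold of at least 5 the counts were again 4 and 4, beside 4.87% and 5.32%. This limit falls unevenly on the lists. Of peaks within 1 kb of any gene end, it takes out 47.4% in WT and 12.2% in alphaKO. The counts also moved with distance: within 500 bp of an end the counts were 7 and 3 (7.21% and 3.84% of all genes) and within 2 kb 15 and 8 (11.7% and 9.08%). With the alphaKO list shortened to the length of the WT list by −log10 q, 8 and 2 members were marked, beside 9.30% and 3.90%, so the WT count still led.

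The members marked at an end in both lists were Rpl36al, Rps19 and Rpl7. Rpl36al (chromosome 12, 69182734 to 69184067) had a fold of 30.5 in WT and 41.3 in alphaKO, with summits 134 and 126 bases from its end and 8 bases apart. Rps19 had a fold of 24.6 in WT and 32.3 in alphaKO, 215 and 220 bases inside its end with the lower coordinate (gene at 24884592 to 24889811 on chromosome 7). Rpl7, a large-subunit protein (chromosome 1, 16101295 to 16104433), had lower folds, 7.55 in WT and 6.92 in alphaKO, at summits 320 and 315 bases outside the gene. In rank, the Rpl36al peak stood at percentile 94.6 of the WT list and 87.4 of the alphaKO list by fold, Rps19 at 91.1 and 80.9, and Rpl7 at 44.1 and 10.2.

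The 5 members marked at an end in WT alone had low folds. Rps12, a small-subunit protein (chromosome 10, 23785183 to 23787383), had the highest, 6.40, with a summit 16 bases inside the gene. Rpl29 had 3.33, 662 bases inside the gene. Rps20 had 2.77, 72 bases inside, and Rps14, a small-subunit protein lost in the 5q- syndrome, had 2.27, 166 bases outside. These peaks stood between percentile 0.608 (Rps14) and 35.2 (Rps12) of the WT list, and Rps12 alone of the 5 had a −log10 q of at least 10 (32.5, against 2.62 to 6.26 for the others). No alphaKO peak met any of them. The alphaKO list marked Rpl11 alone at an end, with a fold of 5.88 at a summit 730 bases outside the gene (chromosome 4, 136049354 to 136053393), which is 4769 bases downstream of its annotated start. At the distance limit, Rpl29 (662 bases) in WT and Rpl11 (730) in alphaKO were the farthest inside, and Rpl22 (1271) and Rps26 (1260) the nearest outside.

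A gene's outer boundary need not be the start used most, and with the promoter table Rps27l, Rpl22 and Rps2 came within this limit while Rpl11 fell outside it. Counting from annotated starts, 6 of the 63 members with a start had a WT summit within 1 kb (9.52%, 3.58 to 19.6, beside 9.32% of 17492 genes) and 3 an alphaKO summit (4.76%, 0.993 to 13.3, beside 5.56%). Rps19, Rps27l and Rpl36al were marked in both (4.76%, beside 4.04%), and Rpl22, Rps12 and Rps2 in WT alone (4.76%, beside 5.28%). No member was marked in alphaKO alone (1.53% of all genes), and a count of 0 among 63 allows a share of up to 4.76% taken as 3 counts, or 5.69% by the exact interval. Each of these 6 genes had its WT summit upstream of the nearest annotated start: by 19 bases at Rpl22, 106 at Rps19, 122 at Rps27l, 130 at Rps2, 134 at Rpl36al and 158 at Rps12. The alphaKO summits lay 101 bases upstream at Rps19, 120 at Rps27l and 126 at Rpl36al.

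Rps27l had the highest fold at a start, 39.7 in WT (pileup 616) and 66.3 in alphaKO (pileup 740). Its summits lay between 2 annotated starts, 122 bases before one in WT, and 1667 bases from the outer end of the gene (chromosome 9, 66944624 to 66949522). Rpl22 had a WT fold of 4.47, and Rps2, a small-subunit protein (chromosome 17, 24718121 to 24721927), had 3.06. Taken over gene ends and annotated starts together, the WT list held 11 peaks at members, of which 4 met an alphaKO peak and had a median fold of 27.6, and 7 met none and had a median of 3.15. Peaks with a partner and peaks without one did not overlap in fold here: the lowest with a partner was 7.55 (Rpl7) and the highest without was 6.40 (Rps12). Over all WT peaks within 1 kb of any gene end the medians were 8.77 for 804 peaks with a partner and 4.06 for 1073 without, so the order was the same and the gap at members rests on 11 peaks. Of those WT peaks at gene ends, 47.4% had a fold below 5, against 12.2% in alphaKO.

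With summits counted inside a gene and up to 10 kb on either side, 23 members were marked in WT (27.7%, 18.4 to 38.6) and 17 in alphaKO (20.5%, 12.4 to 30.8). All protein-coding genes were marked at 26.4% and 30.6%, but members are short, with a median length of 3164 bp against 17169 bp, and genes no longer than the longest member were marked at 16.3% and 16.7%. Both lists marked 11 members (13.3%, beside 20.3% of all and 11.0% of such shorter genes). WT alone marked 12 (14.5%, 7.70 to 23.9, beside 6.01% and 5.22%), and alphaKO alone 6 (7.23%, beside 10.3% and 5.71%). Both background shares of WT alone lay below its interval. For the whole WT list the share of shorter genes (16.3%) also lay below the interval, while that of all genes (26.4%) lay inside it. In alphaKO both background shares (30.6% and 16.7%) lay inside the interval. The remaining 54 members had no summit in that range in either list.

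The order of the lists turned with the threshold. With a fold of at least 5, 14 members were marked in WT and 16 in alphaKO, beside 20.6% and 29.8% of all genes, and with a −log10 q of at least 10 the counts were 16 and 17, beside 23.0% and 30.1%. Equal list lengths gave 23 and 10, beside 26.4% and 24.9%. Flanks of 5 kb gave 18 and 12 (22.6% and 26.0% of all genes), and flanks of 50 kb gave 53 and 58 (47.1% and 55.1%). These background shares are of genes of all lengths, and shorter genes were not counted apart at these settings. Since members are short, the counts do not show fewer marked members than among genes of like length.

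**Figure D2:**
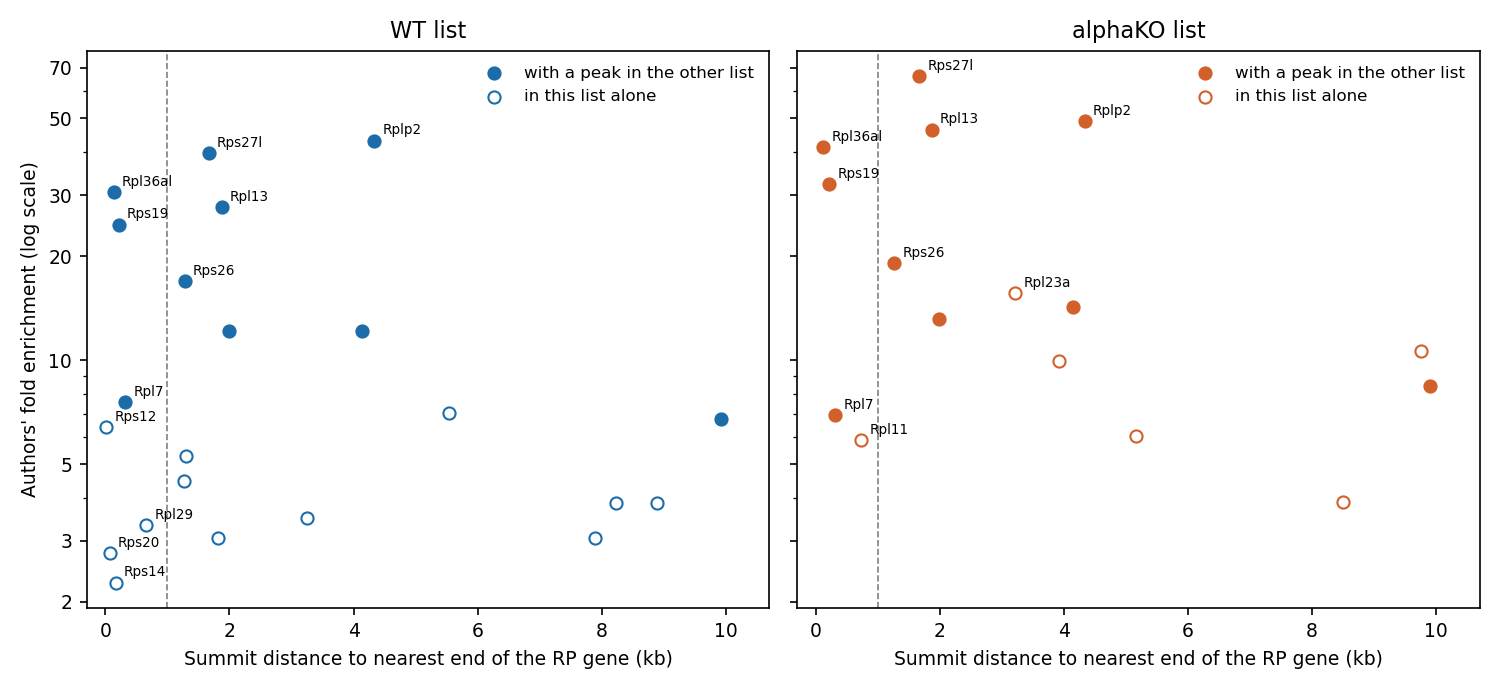
Each point is a p63 peak in or within 10 kb of 1 of 27 ribosomal protein genes, by the distance of its summit to the nearest end of that gene (kb) and its fold (log scale), in WT (left) and alphaKO (right). Filled points met a peak of the other list and open points did not, the dashed line marks 1 kb, and 1 WT peak is drawn for both Rps2 and Rpl3l. Open WT points left of the line lie between 2.27 and 6.40, below the filled points there.

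The highest folds within 10 kb, at Rps27l and Rplp2, were of sites in both lists whose summits lay more than 1 kb from a gene end. Rplp2, an acidic protein of the ribosomal stalk, had a fold of 43.1 in WT and 49.2 in alphaKO, 4.33 kb and 4.34 kb from the gene. These summits were inside Pidd1, a gene known to be induced by p53, and nearer to an end of Pidd1 than to Rplp2. Rpl13 had 27.7 and 46.4 at summits 1.87 kb outside the gene, upstream of its start. Rps26 had 16.9 and 19.0 at 1.28 kb and 1.26 kb, also upstream.

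Weaker sites of both lists lay at Rpl28, Rpl3 and Rps14. Rpl28 had a fold of 12.2 in WT and 14.2 in alphaKO, 4.13 kb and 4.14 kb from the gene on the downstream side. Rpl3 had 12.1 and 13.2, 2.00 kb outside the gene in both. A second Rps14 site, 9.91 kb (WT) and 9.90 kb (alphaKO) outside the gene, had 6.77 and 8.41. At the 10 sites that met, summits were 1 to 17 bases apart.

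Members with a peak in 1 list at this distance mostly had low ranks. In WT alone these included Rps12, Rps20, Rpl29, Rpl22 and Rps2 at their ends or starts, and Rpl19 (7.01), Rps15a (5.29), Rps3 (3.86), Rps21 (3.86), Rpl24 (3.50) and Rpl3l farther out. The Rpl3l peak is the Rps2 peak, 7.89 kb from Rpl3l. In alphaKO alone they were Rpl23a (15.7), Rpl12 (10.6), Rps27 (9.92), Rps28 (6.04), Rpl11 and Rpl18 (3.89). Of the 6, only Rpl23a exceeded the median of its list, at percentile 50.6. Just beyond 10 kb, Rpl10a had sites 10.2 kb away with folds of 51.9 in WT and 62.3 in alphaKO, and Rps21 sites 10.5 kb away had folds of 21.1 and 115.0. The count leaves both out. Inside the limit, the farthest summit was that of Rps14 at 9.91 kb.

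Some of these summits were nearer to another gene than to the member. Of the distinct peaks within 10 kb, 5 of 23 in WT and 7 of 17 in alphaKO were closer to an end of another protein-coding gene. Counting only summits with no other gene's end nearer, 17 members were marked in WT and 10 in alphaKO, beside 20.4% and 24.6% of all genes. The alphaKO peaks counted for Rpl12, Rpl18, Rps27 and Rps28 lay inside Slc2a8, Dbp, Nup210l and Kank3. Which gene a summit serves was not measured.

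**Figure D3:**
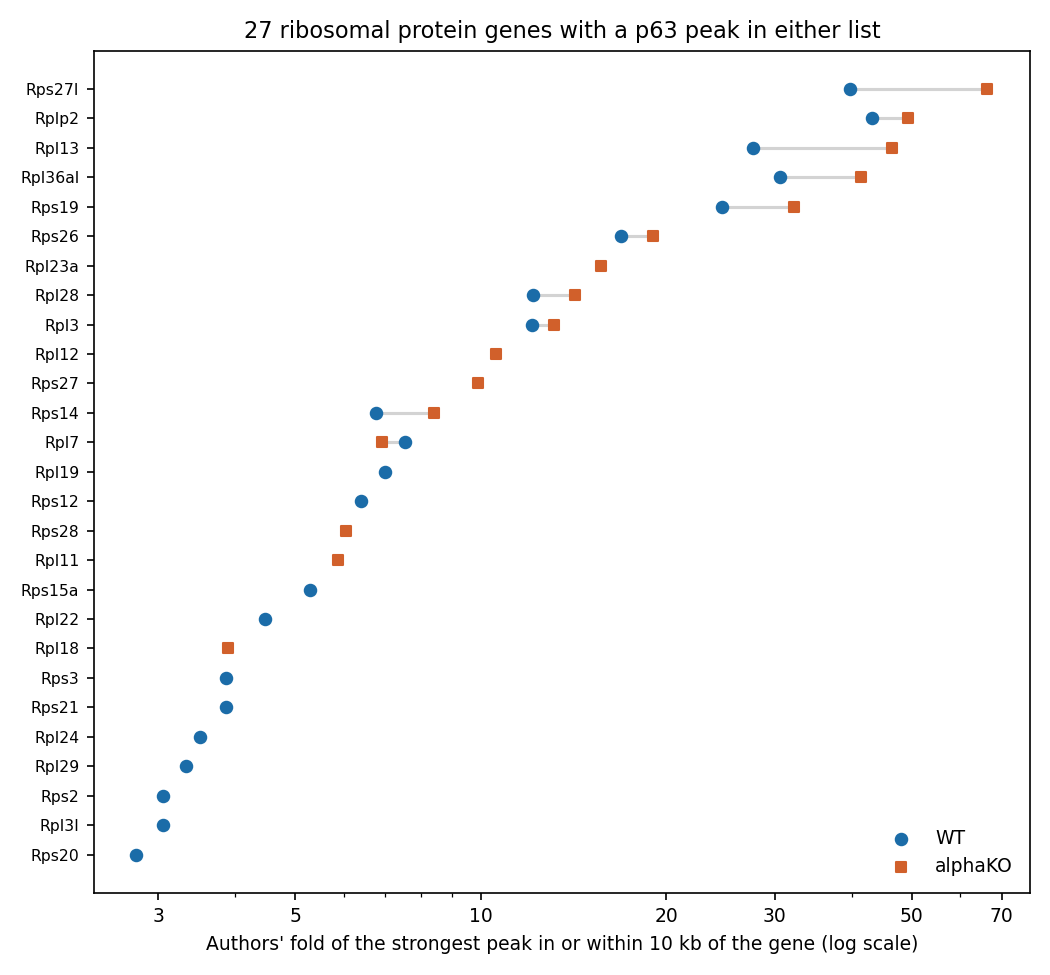
Fold (log scale) of the strongest peak in or within 10 kb of 27 of the 29 members with a peak in either list, in WT (blue circles) and alphaKO (orange squares), with a grey line where both are the same site. The top 6 genes, Rps27l, Rplp2, Rpl13, Rpl36al, Rps19 and Rps26, had the same site in both lists, and the lowest 7 on the axis have a WT point alone.

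By subunit, the order of the shares at gene ends was not the same in WT and alphaKO. In WT, 5 of 30 small-subunit genes (16.7%, 5.64 to 34.7) and 3 of 53 large-subunit genes (5.66%, 1.18 to 15.7) had a summit within 1 kb of an end, beside 9.30% of all protein-coding genes. In alphaKO 1 (3.33%) and 3 (5.66%) did, beside 6.03%. The intervals overlap. Within 10 kb the counts were 11 of 30 and 12 of 53 in WT, and 7 and 10 in alphaKO, beside 26.4% and 30.6% of all genes. Without the 8 paralogs with an l suffix, 7 of 75 genes in WT and 3 of 75 in alphaKO had a summit at an end, and Rps19 was then the sole member with an annotated start marked in both lists.

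Other genes of protein synthesis, and those of the proteasome, gave a reference for active promoters. Of all protein-coding genes, 9.30% in WT and 6.03% in alphaKO had a summit within 1 kb of an end. Of 34 translation factor genes, 11 had a summit within 1 kb of an end in WT (32.4%, 17.4 to 50.5) and 4 in alphaKO (11.8%, 3.30 to 27.5), beside 8 and 4 of the 83 ribosomal protein genes. The 4 translation factor genes marked in alphaKO were marked in WT too. The share of all genes lay below the translation factor interval in WT and inside it in alphaKO. Their strongest peaks within 10 kb were at Eif6, a factor that keeps the ribosomal subunits apart (19.1), Eef1g (15.9) and Eif3l (14.3) in WT, and at Eef1d (45.8), Eef1g (43.4) and Eef2, the translocase of elongation (35.5), in alphaKO. Of 78 mitochondrial ribosomal protein genes, 9 (11.5%) in WT and 8 (10.3%) in alphaKO had a summit at an end, led within 10 kb by Mrpl45 (43.8) in WT and Mrpl33 (110.1) in alphaKO. Of 32 ribosome biogenesis genes 2 and 1 were marked at an end, among them Ncl, which encodes nucleolin (7.85 in WT), and of 31 proteasome genes 4 and 3, with Psmb1 at 12.3 and 33.4.

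The extremes lay elsewhere. Of 20 genes of basal adhesion and known p63 targets, chosen because p63 is known to bind near many of them, 15 (75.0%) in WT and 10 (50.0%) in alphaKO had a summit at an end, and all 20 had one within 10 kb in each list. Of 1110 olfactory receptor genes, which are silent in skin, 1 (0.0901%) and 4 (0.360%) had a summit at an end. Ribosomal protein genes, at 9.64% and 4.82%, lay between these lists and near all genes. The lists were compared by counts alone, without a test.

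**Figure D4:**
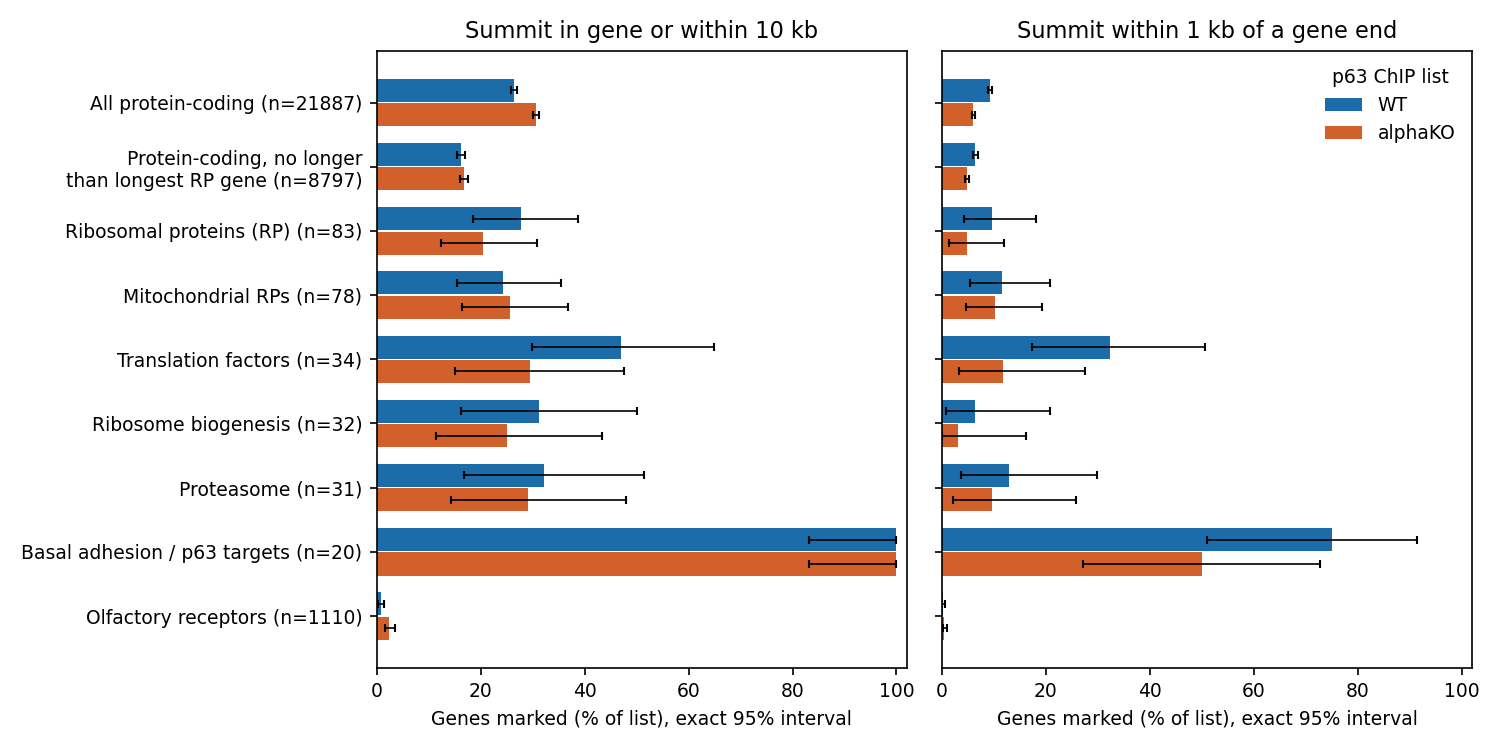
Percentage of genes of each list with a p63 summit in the gene or within 10 kb (left) and within 1 kb of either gene end (right), in WT (blue) and alphaKO (orange), with exact 95% intervals. Ribosomal protein genes (9.64% and 4.82% at an end) lie near all protein-coding genes (9.30% and 6.03%), with basal adhesion genes far above and olfactory receptors near 0.

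Short motifs that the rule did not use were counted in the start windows, without a test. CTTTCC, a pyrimidine run of the kind found at the start of these transcripts, occurred on the gene's strand within 10 bases of the start in 9 of 75 member windows (12%) and in 0.800% of all 21263. CCGGAAG, the core bound by ETS factors, occurred on either strand before the start in 18 (24.0%) and in 8.98% of all. GGGCGG, the core of Sp1 sites, occurred in 37 (49.3%) and 42.6%, and TATAAA in 5 (6.67%) and 11.6%. All but the pyrimidine run were searched on both strands over the same 250 bases, and matches may overlap one another or the p53-family match.

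The distance from a member to the nearest summit spanned a wide range. Over all 83 members, those with a nearby peak included, its median was 25.0 kb in WT and 28.2 kb in alphaKO. Over all protein-coding genes it was 58.2 kb and 38.6 kb. The most remote were Rpl30 in WT (1830 kb) and Rpl35a in alphaKO (351 kb). A summit lay inside the body of 8 of the 83 members in WT (9.64%) and of 2 in alphaKO (2.41%). The shares were 15.7% and 19.5% over all protein-coding genes, and 4.97% and 4.39% over genes no longer than the longest member. Absence from a list does not show absence of binding, since weaker sites fall below its threshold. Reads from exons can also be shared with processed pseudogenes, and their part in these values was not tested. Of 312 pseudogene entries with an Rpl or Rps symbol 0 held a summit in either list, which allows a share of up to 0.962% taken as 3 counts, beside 0.518% in WT and 0.834% in alphaKO over all 10429 pseudogene entries.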

How the data were processed

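Each ChIP library was analysed from 1 deposited peak table. Alignment and peak calling named MACS2 2.1.1.20160309, Bowtie2 and mm10, per the submitters' processing notes. Further options are not stated in the sources used here. Each deposited row holds, per the file headers, a fold enrichment (a ratio to local background), the summit's pileup (a coverage signal), and −log10 values of the q-value and p-value. Depth per library is unknown, since the lists carry no read totals.

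Gene positions came from RefSeq (GRCm38.p6). A gene was marked when a summit lay in it or within 10 kb, and at an end within 1 kb of either end. Partners shared at least 1 bp. Start windows came from the RefSeq promoter table, and 20 of 83 members had none. Members, lists and tests were chosen with earlier results of these data known. Named genes were all members marked at an end, up to 10 others per list by fold, and up to 3 per comparison list; Rps2, Rps3, Rps21, Rpl24, Rpl3l, Rpl18, Rpl10a and neighbouring genes were named after their values were seen. Some genes are counted but not reported here by name. Counting from annotated starts and the motif search were added later, with these data in view. Simulated peak lists with known answers served to test the code. Alternatives were other q, fold, distance and overlap limits, equal list lengths, and omission of paralogs, high-background peaks and peaks nearer to other genes. Software was SciPy 1.17.1, pandas 2.3.3, NumPy 2.4.6 and matplotlib 3.10.9 under Python 3.11.15.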

Additional observations from a re-analysis of the deposited data

How the results depend on the processing

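Of 40 comparisons with an alternative, 28 stayed within 1.5 times of the count or median, or within the interval of the share, and 12 moved further. Some of the 28 could not move: equal list lengths left the shorter WT list whole, and no peak counted at a member had a background above 50. The shares of peaks with a partner had wide intervals (8.52 to 75.5% in WT and 19.4 to 99.4% in alphaKO). The number that stayed is thus no measure of stability. Within 1 kb of an end, the 8 WT members became 4 at −log10 q of at least 10 (6.72% of all genes), 4 at a fold of at least 5 (4.87%) and 15 at 2 kb (11.7%), and the 4 alphaKO members became 2 with equal list lengths (3.90%) and 8 at 2 kb (9.08%). Within 10 kb, the 23 WT members became 14 at a fold of at least 5 (20.6%) and 53 with flanks of 50 kb (47.1%), and the 17 alphaKO members became 10 with equal list lengths (24.9%), 10 without peaks nearer to another gene (24.6%), and 58 with flanks of 50 kb (55.1%). The shares in brackets are of genes of all lengths, and shorter genes were not counted apart at these settings. Counting annotated starts alone, the median fold of peaks at members rose from 4.86 to 15.5 in WT and from 19.6 to 41.3 in alphaKO, over 6 and 3 peaks in place of 8 and 4. Counting from annotated starts was a later choice, made with the data in view. The causes of these shifts were not tested. No paired analysis was possible because each genotype had 1 library. Depth is unknown, and a missing peak is not evidence of absent binding.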

Other observations

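Components of the cytosolic ribosome whose symbols the rule does not take were looked up apart. Rpsa, Rack1 and Fau had no summit within 10 kb in either list. Of all protein-coding genes 26.4% in WT and 30.6% in alphaKO had one, so these few genes give no rate. Rps3a1 is a small-subunit gene left out because the rule takes a digit after the suffix letter l alone. It had a site 5606 bases (WT) and 5602 bases (alphaKO) from the gene, with a fold of 21.2 in WT and 54.5 in alphaKO.

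Of the 83 members, 28 (33.7%) contain at least 1 small nucleolar RNA gene within their body, 55 in all. These RNAs, which guide chemical modification of ribosomal RNA, are released from introns of the host transcript.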
